A study of Mus musculus with 27 samples.

Results

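The 32 genes described here encode the contractile, calcium-handling and energy machinery of heart muscle, together with 2 natriuretic peptides and the transcription factor Nkx2-5. They were taken by symbol from the 21742 rows of a table of linear RNA, and for titin (Ttn) its row in a table of 4416 circular RNA rows was added. The study made 27 libraries of ribosome-depleted total RNA from lung tissue (left lobe) of 87-day-old mice, all of the strain BALB/c AnNHsd. The Saline group (n = 5) was unsensitized. The CDG_HDM group (n = 10) was sensitized with an extract of house dust mites (HDM) plus cyclic di-GMP (CDG), a mucosal adjuvant, in a 35-day protocol that serves as a model of severe asthma. The Dex_CDGHDM group (n = 6) was sensitized in the same way and received the glucocorticoid dexamethasone, 3 doses of 3 mg/kg into the peritoneum on days 11, 18 and 25. The AM155 group (n = 6) was given antimiR-155, an oligonucleotide that blocks the microRNA miR-155, packed in lipid nanoparticles and injected into a vein 3 times at 2 mg/kg on days 11, 18 and 25. The labels of AM155 do not say in words that these mice were sensitized, no group received empty nanoparticles, and the sex of the mice is not given in the sources used here. Each library is named below by its group and the number in its title. The labels number the libraries as separate samples and name no animals or batches, so p-values measure only the spread between these samples, part of which may be technical.

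In the mouse, a sleeve of heart muscle of the atrial type continues from the left atrium along the pulmonary veins and reaches into the lung, so a lung lobe normally holds some cardiomyocytes. A sarcomere contracts when calcium released from the sarcoplasmic reticulum binds troponin on the thin filament and lets myosin of the thick filament pull on actin. Thin filaments are anchored at Z-discs, while titin spans from the Z-disc to the M-band. Atrial muscle differs from ventricular muscle in its myosin light chains, in using sarcolipin, and in its store of atrial natriuretic peptide. Muscle sleeves of pulmonary veins are known in cardiology as a source of ectopic beats.

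The label of heart muscle was checked in Saline lungs. Levels are in TPM (a share of all transcripts), a unit per length of transcript that allows genes to be compared. The 6 markers of the atrial type were all present, with means from 12.3 TPM for Mybphl to 581 TPM for Myl7. Of 4 markers of the ventricular type, Myl2 (4.28 TPM), Myl3 (10.2 TPM) and Irx4 (0.691 TPM) lay below all 6, Myl3 only just below Mybphl. Myh7, at 34.3 TPM, lay above the atrial markers Mybphl and Sln (sarcolipin, 31.1 TPM). Myh6 is the main motor of adult mouse heart muscle in general, so it does not tell atrial from ventricular muscle. Whether this RNA came from pulmonary veins, from the large vessels at the root of the lobe or from heart tissue carried over at dissection was not measured: weighed, minced tissue of the lobe was extracted, and how much of the root it held was not recorded in the labels. In such bulk RNA, fewer muscle cells, less of each RNA per muscle cell and more RNA from other cells cannot be told apart.

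The following 5 upstream sequences are shown because their genes carry the main contrasts described below: the neighbours Myh6 and Myh7, which differed in their response, the abundant light chain gene Myl7, the peptide gene Nppa and cardiac actin Actc1. Each is the part of the 250 bases upstream of the most upstream RefSeq start that lies outside exons of GENCODE M21 (GRCm38), written 5′ to 3′ on the strand of the gene. The stretches of Myh6 and Actc1 lie inside the spans that GENCODE gives for these genes. Capitals mark matches on either strand to 5 motifs. These were the GATA motif, read as AGATAA and also with a first T (TGATAA), a last G (AGATAG) or both changes (TGATAG), the NKX motif, read as CAAGTG or with a first T (TAAGTG), the TBX motif AGGTGT, the MEF2 box and the CArG box bound by serum response factor.
Myh6, chr14:54966642-54966857, minus strand: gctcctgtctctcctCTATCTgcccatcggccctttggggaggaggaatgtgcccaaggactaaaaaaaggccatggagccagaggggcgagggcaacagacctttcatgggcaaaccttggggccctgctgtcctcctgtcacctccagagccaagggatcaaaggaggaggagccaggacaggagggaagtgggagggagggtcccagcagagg
Myh7, chr14:54994627-54994876, minus strand: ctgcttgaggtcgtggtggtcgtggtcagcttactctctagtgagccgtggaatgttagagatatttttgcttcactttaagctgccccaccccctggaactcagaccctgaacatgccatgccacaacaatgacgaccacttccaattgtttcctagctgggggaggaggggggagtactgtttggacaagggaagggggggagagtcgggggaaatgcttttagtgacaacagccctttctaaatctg
Myl7, chr11:5898783-5899032, minus strand: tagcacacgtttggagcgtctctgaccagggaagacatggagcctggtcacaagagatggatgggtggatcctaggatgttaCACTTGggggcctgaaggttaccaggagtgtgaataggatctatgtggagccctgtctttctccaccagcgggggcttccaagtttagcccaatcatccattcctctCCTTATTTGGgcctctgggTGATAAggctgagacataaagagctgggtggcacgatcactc
Actc1, chr2:114052888-114053125, minus strand: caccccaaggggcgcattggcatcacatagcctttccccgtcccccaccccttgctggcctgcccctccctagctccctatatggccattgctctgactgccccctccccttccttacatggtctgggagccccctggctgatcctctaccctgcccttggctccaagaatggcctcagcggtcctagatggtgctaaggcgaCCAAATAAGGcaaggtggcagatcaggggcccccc
Nppa, chr4:148000472-148000721, plus strand: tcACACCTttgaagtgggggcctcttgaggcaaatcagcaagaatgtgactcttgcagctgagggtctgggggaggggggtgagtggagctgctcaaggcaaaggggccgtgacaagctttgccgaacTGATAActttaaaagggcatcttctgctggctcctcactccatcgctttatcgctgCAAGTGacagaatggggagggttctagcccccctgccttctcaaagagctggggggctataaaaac
In the printed stretches, Nppa held a GATA, an NKX and a TBX match, Myl7 a GATA, an NKX and a CArG match, Myh6 a GATA match, Actc1 a CArG match and Myh7 none of the 5. The table of upstream sequences, credited to RefSeq on GRCm38.p6, held 35 windows of 28 of the 32 genes, and some windows of 1 gene overlap. Over whole windows of 250 bases, a CArG box was found in 6 of the 35 (17.1%) against 1.47% of all 32851 windows, in Actc1, Ldb3, Myl3, Myl7 and Myom1. The MEF2 box was found in 11.4% against 2.92% of all windows. The other motifs were about as common as elsewhere: GATA 34.3% against 26.5%, NKX 22.9% against 18.4% and TBX 11.4% against 11.8%. A match is a description of letters, not of binding, and no window was tested for activity.

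Some properties of whole libraries bear on the values that follow. The linear values summed to 806446 to 858506 TPM in Saline and 542264 to 798457 TPM in the other groups, the rest of the TPM scale lying in the circular table or outside both tables, so 3 other scalings were tried. In AM155 5, AM155 6 and Dex_CDGHDM 4, circular RNA took 21.9% to 24.1% of the scale, most of it listed under the surfactant gene Sftpc, against 3.29% to 10.9% in the other 24 libraries. Each of these 3 libraries was the lowest of its group for many of the 32 genes (16, 16 and 27 of them). The files hold no read counts, and sequencing depth is therefore unknown. The library Saline 8 stood apart for this gene group and is named wherever single libraries are given, while every Saline mean ± SD includes it.

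Summed over the 32 genes, the level was 2024.7 TPM in Saline 2, 2224 in Saline 4, 2009.6 in Saline 5, 2089 in Saline 10 and 884 in Saline 8. The CDG_HDM libraries ranged from 251 (CDG_HDM 13) to 668 TPM (CDG_HDM 5) with a median of 453. In AM155 the sum ranged from 259 to 864 TPM with a median of 506, and in Dex_CDGHDM from 401 to 620 with a median of 529. In the deposited TPM no library of the 3 other groups reached the level of Saline 8, and 4 of 5 Saline libraries lay far above it. This depends on the scale. As a share of the linear sum of its library, AM155 2 (0.116%) lay above Saline 8 (0.103%) and below the other Saline libraries (0.239% to 0.276%). Saline 8 was the lowest Saline library for 28 of the 32 genes, and it still exceeded every CDG_HDM library for 27 genes. Over all 32 genes, the mean of the other 4 Saline libraries was a median of 2.11 times the level in Saline 8. In Saline 8 the summed level was also the lowest of Saline for adipocyte genes (289 TPM, others 357 to 475), oxidative muscle metabolism (714, others 916 to 963) and smooth muscle (809, others 838 to 1049.5), and the highest for endothelial and venous genes (1253, others 1051 to 1216). Sums of other sarcomere genes and of skeletal muscle genes were lowest in Saline 8 as well. Those of immune, mesothelial, thymus and heart regulator genes and of the ventricular markers were highest there.

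**Figure D1:**
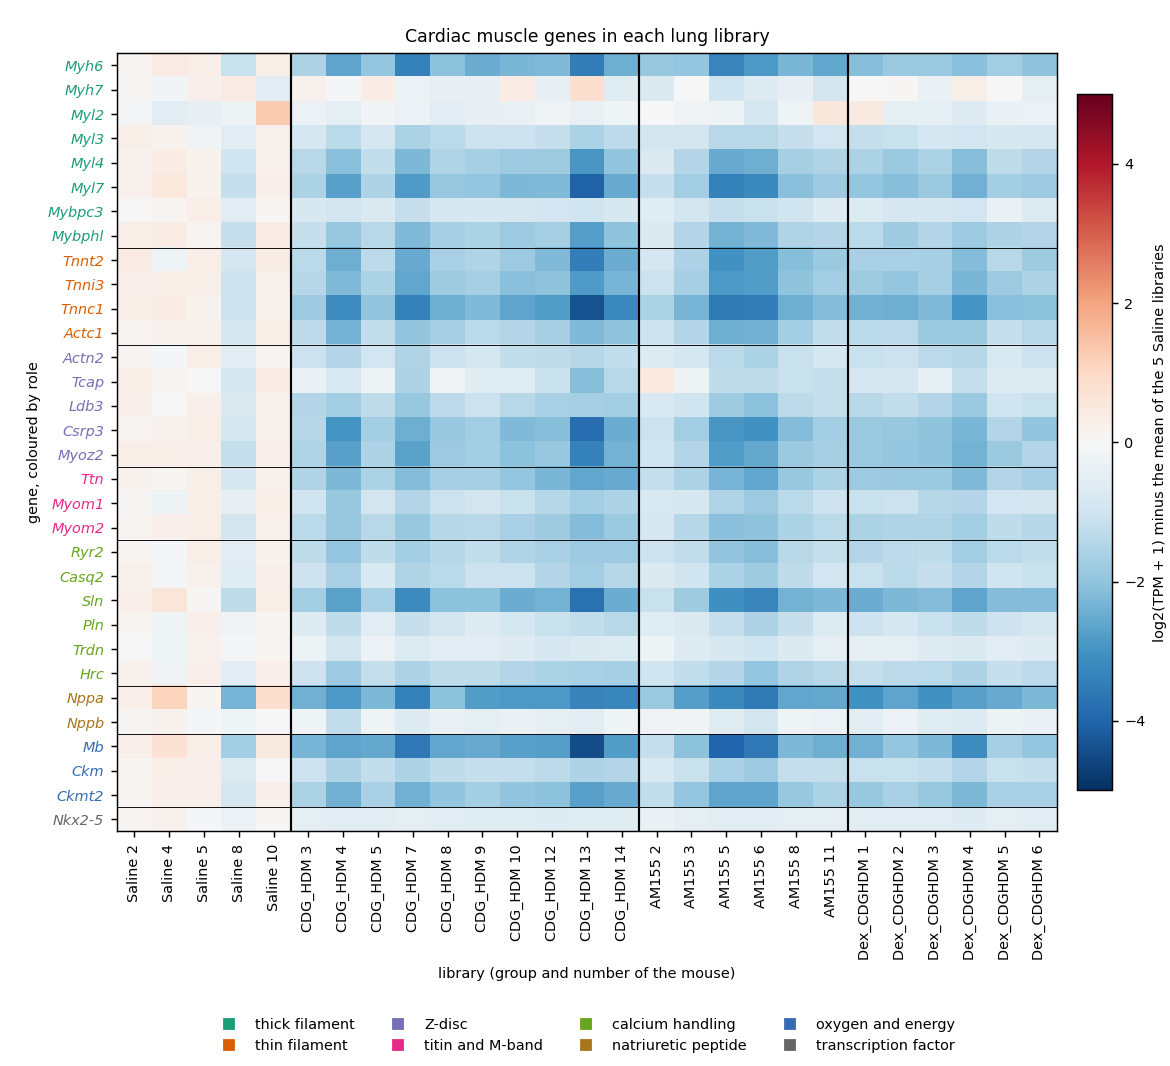
Difference of each of the 32 genes (rows, grouped and coloured by role) from the mean of the 5 Saline libraries, in log2(TPM + 1), for the 27 libraries (columns, vertical lines between groups). Blue fills nearly all rows of the 22 libraries of the 3 other groups, Saline 8 is intermediate, and the rows of Myh7 and Myl2 stay pale.

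Sensitization was examined first, as CDG_HDM against Saline. In sensitized lungs 29 of the 31 genes tested were lower, none was higher, and the mean level in Saline was a median of 3.66 times that in CDG_HDM over the 32 genes. The troponin Tnnc1, myoglobin (Mb), sarcolipin (Sln) and alpha myosin heavy chain (Myh6) were among those with the lowest differences, together with Nppa. The myosin heavy chain Myh7 and the ventricular light chain Myl2 were not called. Of all 17437 genes tested, limma called 22.8% lower and 9.35% higher in this comparison. The median difference over the 31 genes was -1.67 in log2(TPM + 1), and over all genes it was -0.10. All 10 CDG_HDM libraries lay below all 5 Saline libraries for 26 of the 31 genes, which holds for 8.92% of all genes. Nkx2-5 was too low to be tested and also did not overlap (0.641 ± 0.209 TPM in Saline, 0.107 ± 0.0412 in CDG_HDM; SD, n = 5 and 10). Without Saline 8, 29 genes were still called lower and the median became -1.91. With the linear values rescaled to 1 common sum per library, 29 genes were called lower with a median of -1.54, while the calls over all genes changed from 3976 lower and 1631 higher to 2705 lower and 4567 higher, and the median over all genes moved to 0.04. Relative to the median of all genes, the 31 genes stood at -1.58 under both scalings.

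Of 8 thick filament genes, 6 were lower and the other 2, Myh7 and Myl2, were not called. Myh6 encodes alpha myosin heavy chain, the main motor of atrial and adult mouse heart muscle (chromosome 14, 54941921 to 54966927). Its level was 41.4, 51.9, 48.5 and 47.8 TPM in Saline 2, 4, 5 and 10, 17.2 TPM in Saline 8, and 2.61 to 12.7 TPM in CDG_HDM (median 6.74). The groups did not overlap, and the difference was -2.44 ± 0.26 in log2(TPM + 1) (limma, SE, adjusted p = 2.14e-08). Myl7, the regulatory light chain of atrial myosin (chromosome 11, 5896637 to 5898782), was the most abundant of the 32 genes in Saline. It stood at 628, 789.7, 604 and 644 TPM in those 4 Saline libraries, at 239.9 TPM in Saline 8 and at 31.98 to 185 TPM in CDG_HDM (median 115). Again no CDG_HDM library reached the lowest Saline library (-2.35 ± 0.34, adjusted p = 2.77e-06). The atrial essential light chain Myl4 fell from 250 ± 74.9 to 67.5 ± 20.8 TPM (-1.87 ± 0.25) and the myosin-binding protein gene Mybphl from 12.3 ± 4.45 to 2.69 ± 1.06 TPM (-1.82 ± 0.24). Myl3, an essential light chain of ventricular and slow muscle, fell from 10.2 ± 2.39 to 3.81 ± 0.909 TPM (-1.21 ± 0.13), and cardiac myosin-binding protein C (Mybpc3) from 4.90 ± 1.23 to 2.15 ± 0.27 TPM (-0.88 ± 0.12).

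Myh7 encodes beta myosin heavy chain, the motor of slow muscle and of the fetal ventricle, and lies next to Myh6 (chromosome 14, 54970684 to 54994626, a gap of 3756 bases). Its level was 34.4, 30.5, 39.4, 45.1 and 21.9 TPM in Saline 2, 4, 5, 8 and 10 and 21.8 to 60.2 TPM in CDG_HDM (median 29.1). The groups overlapped fully, with means of 34.3 and 34.0 TPM and a difference of -0.04 (95% interval -0.44 to 0.36, limma adjusted p = 0.888), and it was 0.11 with the values rescaled to a common sum. The library with the highest Myh7, CDG_HDM 13, was the lowest of its group for 17 of the 32 genes, Myh6 and Myl7 among them. In the annotation, Myh7 overlaps 4 genes on the opposite strand, Mhrt among them, and Myh6 and Myh7 are close paralogs. Whether the authors' counting used the strand or how it shared reads between paralogs is not given in the sources used here, so the level of Myh7 is uncertain. Myl2, the ventricular regulatory light chain, was at 3.41, 2.14, 2.51, 2.87 and 10.5 TPM in the same order of Saline libraries and at 2.13 to 3.27 TPM in CDG_HDM. Apart from Saline 10 the groups covered the same range (-0.32, 95% interval -0.75 to 0.11, adjusted p = 0.258).

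**Figure D2:**
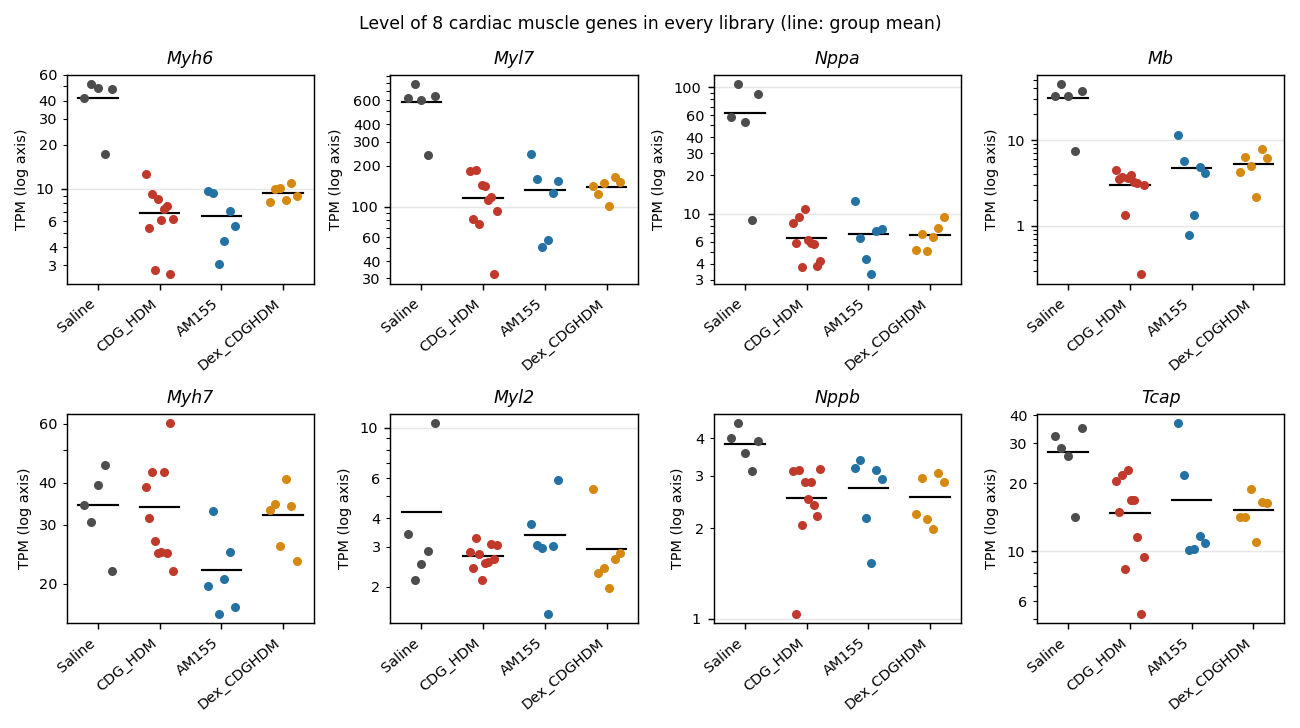
Level in TPM (log axis, not starting at 0) of 8 of the genes in every library, by group, with points for libraries and lines for group means. Myh6, Myl7, Nppa and Mb (top) show 4 high Saline libraries, 1 lower one and 3 other groups that overlap one another. These groups lie below the lower Saline library for Myh6, while at least 1 of them reaches it for Myl7, Nppa and Mb. Myh7 and Myl2 (bottom left) overlap across groups and Nppb and Tcap overlap in part.

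All 4 thin filament genes were lower, with no overlap between groups. Tnnc1, the calcium sensor of the troponin complex (chromosome 14, 31208312 to 31211729), was at 104, 110.2, 96.2 and 96.0 TPM in Saline 2, 4, 5 and 10, 40.1 TPM in Saline 8 and 3.17 to 23.1 TPM in CDG_HDM (median 12.1; -2.79 ± 0.32, adjusted p = 8.76e-08). The cardiac troponin T gene Tnnt2, which ties troponin to tropomyosin, fell from 174 ± 56.4 to 42.2 ± 17.7 TPM (-2.07 ± 0.30). Tnni3, the inhibitory troponin of adult heart, fell from 109.6 ± 33.7 to 25.3 ± 7.90 TPM (-2.06 ± 0.25). Cardiac alpha actin, Actc1, fell from 68.4 ± 17.7 to 20.1 ± 5.61 TPM (-1.72 ± 0.22).

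At the Z-disc all 5 genes were lower, and 4 did not overlap. Csrp3, a LIM protein that senses stretch, fell from 67.8 ± 18.6 to 13.9 ± 5.94 TPM (-2.28 ± 0.30), and Myoz2, which binds calcineurin, from 24.5 ± 8.43 to 4.70 ± 2.06 TPM (-2.16 ± 0.28). Ldb3, a scaffold for alpha-actinin, and Actn2, alpha-actinin itself, fell by 1.52 ± 0.18 and 1.21 ± 0.14 in log2(TPM + 1). Tcap, the cap of titin, was at 32.5, 28.7, 26.5 and 35.0 TPM in Saline 2, 4, 5 and 10, 14.2 TPM in Saline 8 and 5.29 to 22.8 TPM in CDG_HDM, so that 6 of the 10 CDG_HDM libraries lay above Saline 8. Its fall was called (-0.90 ± 0.28, adjusted p = 0.0133) but not without Saline 10.

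Titin, the spring of the sarcomere, and the M-band proteins Myom1 and Myom2 were lower without overlap. Linear Ttn RNA (chromosome 2, 76703980 to 76982547) was at 63.1, 59.8, 67.0 and 64.7 TPM in Saline 2, 4, 5 and 10, 30.7 TPM in Saline 8 and 8.21 to 18.7 TPM in CDG_HDM (median 12.7; -2.02 ± 0.21, adjusted p = 1.02e-08). Myom2 fell from 5.92 ± 1.97 to 1.11 ± 0.406 TPM (-1.67 ± 0.18) and Myom1 from 12.2 ± 2.78 to 4.37 ± 1.24 TPM (-1.31 ± 0.17).

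Calcium-handling genes were lower in all 6 cases, by unequal amounts. Sln, which encodes sarcolipin, the atrial regulator of the calcium pump SERCA (chromosome 9, 53850164 to 53854560), was at 34.4, 44.1, 30.1 and 35.5 TPM in Saline 2, 4, 5 and 10, 11.3 TPM in Saline 8 and 1.205 to 8.58 TPM in CDG_HDM (-2.43 ± 0.31, adjusted p = 4.76e-07). Phospholamban (Pln), the other main regulator of that pump, fell from 27.9 ± 3.80 to 13.9 ± 3.08 TPM (-0.97 ± 0.14). The calcium release channel Ryr2 fell from 18.9 ± 4.21 to 5.69 ± 1.18 TPM (-1.56 ± 0.16). Its luminal partners were calsequestrin (Casq2, -1.31 ± 0.16), the histidine-rich calcium binding protein (Hrc, -1.45 ± 0.14) and triadin (Trdn, 13.0 ± 1.70 to 8.17 ± 1.37 TPM, -0.61 ± 0.11). No CDG_HDM library overlapped Saline for any of the 6. In the annotation, Pln overlaps 2 genes on the opposite strand and Trdn overlaps 4 on each strand. Their levels carry the same uncertainty as that of Myh7.

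The 2 natriuretic peptide genes lie side by side on chromosome 4 (Nppb 147985788 to 147987205, Nppa 148000722 to 148002079, 13516 bases apart). Nppa, the precursor of atrial natriuretic peptide, was at 57.9, 106, 52.7 and 88.0 TPM in Saline 2, 4, 5 and 10, 8.91 TPM in Saline 8 and 3.75 to 10.9 TPM in CDG_HDM (median 5.84). Saline 8 lay inside the CDG_HDM range and the other 4 lay far above it (-2.81 ± 0.34, adjusted p = 2.17e-07). Nppb, the precursor of brain natriuretic peptide, was at 3.12 to 4.48 TPM in Saline and 1.04 to 3.17 TPM in CDG_HDM. Its groups overlapped at Saline 8, and its fall was smaller (-0.47 ± 0.14, adjusted p = 0.00817).

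Genes of oxygen storage and energy transfer were lower in 3 of 3 cases without overlap. Myoglobin, Mb (chromosome 15, 77015487 to 77050670), was at 32.6, 45.0, 33.0 and 36.9 TPM in Saline 2, 4, 5 and 10, 7.40 TPM in Saline 8 and 0.272 to 4.53 TPM in CDG_HDM (median 3.40; -2.89 ± 0.38, adjusted p = 7.97e-07). Its mean was 10.2 times higher in Saline than in CDG_HDM, the highest such ratio of the 32 genes, and 9 of them exceeded a ratio of 5. The mitochondrial creatine kinase Ckmt2 fell from 15.6 ± 4.39 to 2.88 ± 1.04 TPM (-2.09 ± 0.21) and the cytosolic muscle enzyme Ckm from 21.5 ± 5.42 to 7.81 ± 1.13 TPM (-1.32 ± 0.14).

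In a ratio of 2 genes within a library the scaling of the library cancels, except for the 0.1 TPM added to both terms, which weighs on low genes. For this, 10 ratios were compared between groups in 3 contrasts (30 exact permutation tests, two-sided, adjusted together by Benjamini-Hochberg). Against Saline, CDG_HDM had lower ratios of Myh6 to Myh7 (log2 difference -2.57), Sln to Pln (-1.66), Myl7 to Myl2 (-1.99) and Nppa to Nppb (-2.35). The adjusted p values of the exact tests were 0.00666, 0.00666, 0.00999 and 0.0114. The ratio of Myh6 to Myh7 was -1.39 to 1.12 in log2 over the Saline libraries, lowest in Saline 8, and -4.48 to -1.53 over CDG_HDM, with no overlap. For Sln to Pln the groups nearly met (lowest Saline -1.092, highest CDG_HDM -1.096). They overlapped for Myl7 to Myl2 (lowest Saline 5.93, highest CDG_HDM 6.02) and for Nppa to Nppb (1.48 and 2.39). The ratio of Tnni3 to Tnnc1 rose (difference 0.80, exact adjusted p = 0.00666). It was 0.24 to 0.39 in Saline including Saline 8 and 0.71 to 2.08 in CDG_HDM. The listed levels of these 2 subunits of 1 complex thus did not change by the same factor. In the annotation, Tnnc1 and Pln, among others, overlap genes on the opposite strand, and Tnni3 overlaps 1 on the same strand. Reads shared with such neighbours were not examined. The ratio of Myl4 to Myl3 was lower by the exact test at an adjusted p of 0.04995 (difference -0.49), which was lost in 13 of the 15 analyses that left out 1 library.

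The same approach set Myh6 beside single genes of other tissues. Myh6 fell relative to Myh11 of smooth muscle (log2 difference -1.77, exact adjusted p = 0.00999) and relative to Pecam1 of endothelium (-1.95, exact adjusted p = 0.00999). Relative to Adipoq of fat cells the difference was 0.57 (exact adjusted p = 0.474), and relative to Acta1, the actin of skeletal muscle, it was -0.33 (exact adjusted p = 0.627). With 1 TPM instead of 0.1 TPM added to both terms, the difference for Adipoq was 0.027 (exact adjusted p = 0.982) and the ratio of Myh6 to Acta1 was lower in CDG_HDM (-1.11, exact adjusted p = 0.00856). Acta1 was itself low, at 2.97 ± 1.17 TPM in Saline and 0.529 ± 0.272 in CDG_HDM.

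**Figure D3:**
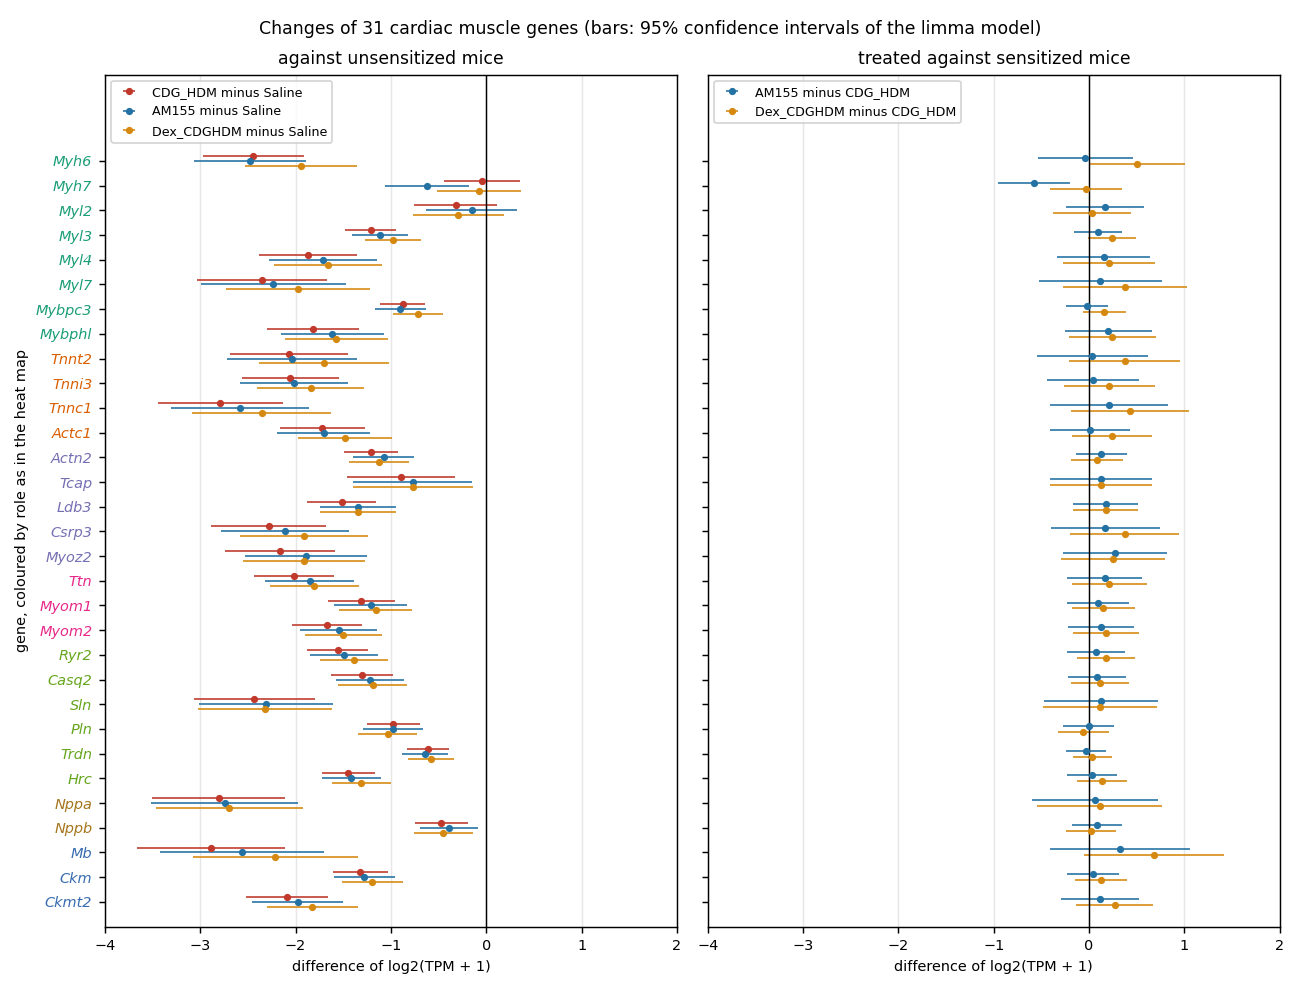
Differences in log2(TPM + 1) with 95% intervals of the limma model for the 31 genes tested, against Saline (left) and of the treated groups against CDG_HDM (right). On the left all points but those of Myh7, Myl2, Nppb, Trdn, Tcap and Mybpc3 lie near or below -1, and on the right every interval covers 0 except those of Myh7 in AM155 and Myh6 in Dex_CDGHDM.

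Other genes of heart muscle, from lists that hold none of the 32, were examined next. In this comparison limma called 22.8% of all genes lower and 9.35% higher. Of 16 other sarcomere genes tested, 15 were lower and none higher, with a median of -0.94. These included the stretch-induced Ankrd1 (-1.37 ± 0.25), the myosin chaperone Unc45b (-1.19 ± 0.15) and Nrap (-1.17 ± 0.12). Of 17 other calcium-handling and channel genes, 12 were lower and none higher, with a median of -0.35. These included Srl (-1.45 ± 0.15), Jph2, which joins the reticulum to the cell membrane (-0.93 ± 0.14), and the SERCA gene Atp2a2 (171 ± 29.6 to 96.6 ± 18.5 TPM, -0.82 ± 0.15). Of 11 transcription factors and regulators of heart development, 7 were lower and none higher, by at most 0.61 ± 0.12 for Tbx5, with Smyd1 (-0.56), Myocd (-0.54) and Gata6 (-0.50) next. Smyd1 stands on both the sarcomere and the regulator list, and several genes of these lists are also active in other lung cells. Of 5 genes that process or bind natriuretic peptides, 4 were lower: the clearance receptor Npr3 (48.3 ± 14.2 to 20.01 ± 12.1 TPM, -1.46 ± 0.40), the receptors Npr1 (-0.84 ± 0.17) and Npr2 (-0.78 ± 0.12) and the protease Corin (-0.79 ± 0.09). Of 11 genes of oxidative muscle metabolism, 9 were lower and none higher, led by the muscle respiratory chain subunit Cox8b (99.9 ± 28.6 to 21.1 ± 7.37 TPM, -2.20 ± 0.23), the fatty acid carrier Fabp3 (-2.09 ± 0.26), Cox7a1 (-1.93 ± 0.20) and the glucose transporter Slc2a4 (-1.40 ± 0.18).

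Markers of other tissues that a lobe could carry changed in the same comparison, where limma called 22.8% of all genes lower and 9.35% higher. The summed level of 11 adipocyte genes was 289 to 475 TPM in Saline and 41.9 to 148 TPM in CDG_HDM, and 8 of 9 tested were lower, with a median of -1.79: Cfd (-3.38 ± 0.62), Fabp4 (-2.70 ± 0.47), Car3 (-2.55 ± 0.39) and Adipoq (-2.47 ± 0.46) fell furthest. Of 11 smooth muscle genes, 10 were lower (median -0.82), with Cnn1 (-1.49 ± 0.25), Acta2 (-1.20 ± 0.20) and Actg2 (-1.14 ± 0.20) first. Of 10 endothelial and venous genes, 9 were lower (median -0.72), with Tek (-1.36 ± 0.19), Kdr (-1.09 ± 0.16), Cdh5 (-0.94 ± 0.17) and Vwf (-0.85 ± 0.18) first, and Ackr1 was higher (0.55 ± 0.17). Of 6 mesothelial genes, 5 were lower (median -0.88), with Upk3b (-1.32 ± 0.18), Upk1b, Lrrn4 and Muc16 first. Skeletal muscle genes were split, 6 lower and 2 higher of 16 tested (median -0.09), with Myl1 (-1.55 ± 0.25), Acta1 (-1.34 ± 0.31) and Tnnt3 (-1.26 ± 0.16) lower and Cacna1s (0.74 ± 0.07) and Neb (0.32 ± 0.10) higher. Their summed level was 64.5 to 81.6 TPM in Saline and 47.8 to 61.1 TPM in CDG_HDM. Of 6 thymus genes tested, 2 were higher, Themis (0.79 ± 0.11) and Prss16 (0.47 ± 0.11), and none was lower. Of 8 immune cell genes, 7 were higher, among them Jchain of antibody-secreting cells (16.7 ± 6.37 to 2670.3 ± 592 TPM, 7.28 ± 0.20), C1qa (2.53 ± 0.16) and Cd68 (1.39 ± 0.14) of macrophages and Cd4 of T cells (1.66 ± 0.14). With the values rescaled to a common sum, 5 skeletal muscle genes were lower and 4 higher, 2 heart regulators and 1 natriuretic gene were called higher, and 4 thymus genes were higher, while 15 sarcomere, 7 adipocyte, 10 smooth muscle, 8 endothelial and venous and 5 mesothelial genes were lower. Over all 17437 genes tested, that rescaling gave 2705 lower and 4567 higher calls. No gene of these lists was at 0 in any library. The part of these tissues in the fall of the heart muscle genes was not tested.

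**Figure D4:**
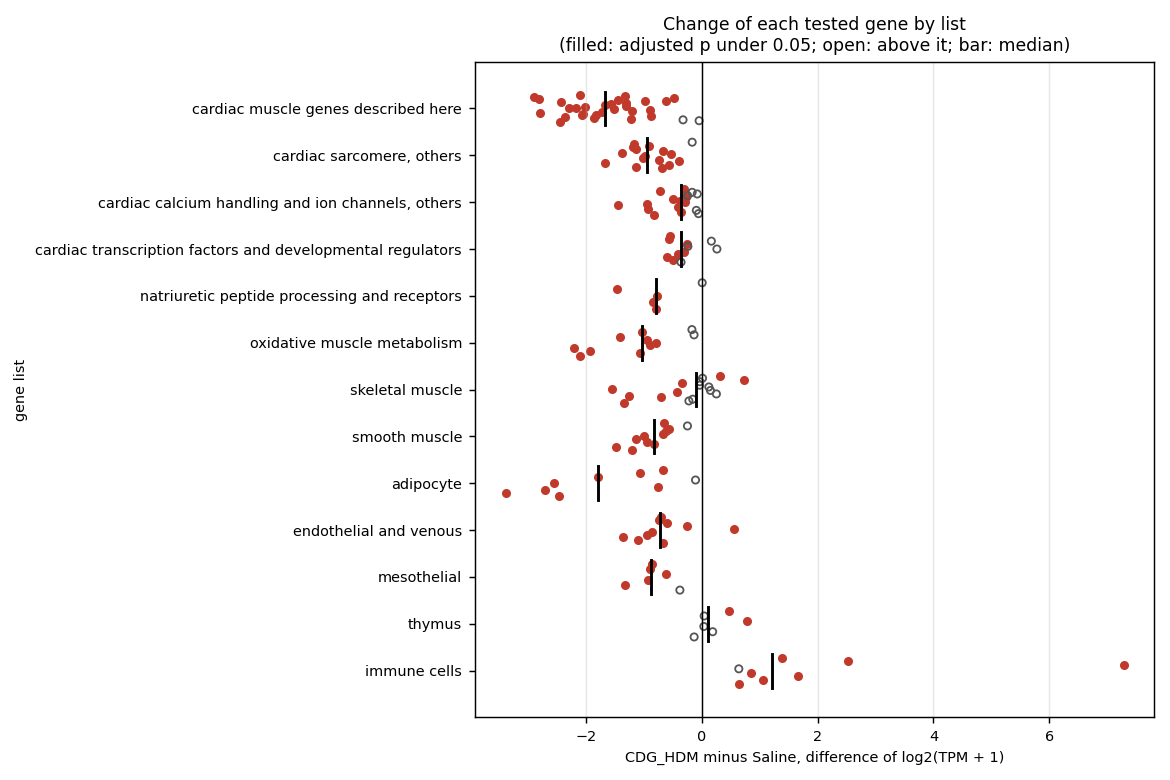
Difference in log2(TPM + 1) between CDG_HDM and Saline for every tested gene of each list (filled points, adjusted p under 0.05 by limma; open points, above it; bars, medians). The 31 heart muscle genes have their median at -1.67, adipocyte genes at -1.79, vessel and mesothelial lists between -0.88 and -0.72, and immune cell genes at 1.22.

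Variation within a group was examined for Myh6 against 4 other genes of the 32 and against 4 genes of other tissues. Over the 10 CDG_HDM libraries, Myh6 correlated with Myl7 (Pearson r = 0.889, Spearman rho = 0.915), with Tnni3 (r = 0.908, rho = 0.855) and with Nppa (r = 0.817, rho = 0.745). Their adjusted permutation p values for r were 0.00312, 0.0054 and 0.0324, over 24 pairs and groups, and those for rho were 0.0122, 0.0377 and 0.0599, so that the pair with Nppa did not pass by rank. Without the 2 libraries farthest from the median of Myh6, r was 0.823, 0.758 and 0.668. For Actc1 r was 0.705 (rho 0.758, adjusted permutation p for r 0.0944) and for Adipoq 0.672 (rho 0.745, 0.113). For Myh11, Pecam1 and Acta1 r was 0.37, 0.28 and 0.247. The genes of a pair share a library and its scale, which bears on every such value. In AM155 (n = 6) r with Myl7 was 0.909 (rho 0.943, adjusted exact permutation p for r 0.0944), where AM155 5 and AM155 6 were low in both genes, and in Dex_CDGHDM (n = 6) it was 0.517 (rho 0.6, 0.484). No pair passed 0.05 in these 2 groups.

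Circular RNA of titin was measured in a separate table. A circular RNA forms when a downstream splice site joins an upstream one, and the files give 1 value per gene symbol without the junction. Circular Ttn stood at 12.9, 12.3, 13.4 and 13.5 TPM in Saline 2, 4, 5 and 10 and at 4.29 TPM in Saline 8. It was listed above 0 in 6 of 10 CDG_HDM libraries, with 2.91 TPM the highest, in 2 of 6 AM155 libraries (highest 3.05) and in 4 of 6 Dex_CDGHDM libraries (highest 1.51). The Saline and CDG_HDM groups did not overlap, which holds for 1.32% of the 2271 circular rows tested. An exact permutation test of the TPM gave p = 0.000666, the smallest it can give, and an adjusted p of 0.004 over 6 tests. By limma on log2(TPM + 3.48e-06) the difference was -10.71 ± 4.76 with an adjusted p of 0.414, when 0.749% of circular rows were called. With 1 TPM as the pseudocount it was -2.88 ± 0.43 with an adjusted p of 0.000409, when 0.925% were called. Relative to the linear RNA of the same library, circular Ttn was 19.2% ± 2.94 in Saline and 5.71% ± 6.28 in CDG_HDM (SD, exact permutation p = 0.00133, adjusted p = 0.004). The share was 13.9% to 20.9% over the Saline libraries and 0% to 17.6% over CDG_HDM, so the groups overlapped. With the depth unknown, a value listed at 0 does not show absence, and the 4 CDG_HDM libraries at 0 enter this mean, so no comparison of the circular with the linear change is drawn. Of the other 31 genes, Ryr2, Hrc, Myh6 and Myh7 had rows in the circular table. Ryr2 was above 0 in Saline 2, Saline 10 and AM155 2, Hrc in Saline 2 alone, and Myh6 in none.

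**Figure D5:**
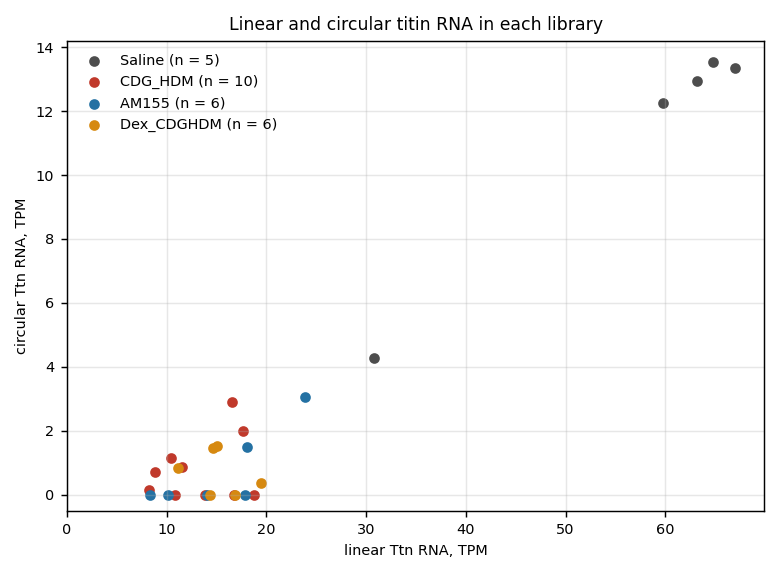
Circular against linear Ttn RNA in TPM, 1 point for each of the 27 libraries, coloured by group. The 4 other Saline libraries lie from 59.8 TPM linear and 12.3 TPM circular upward, Saline 8 lies at 30.7 and 4.29, and no library of the 3 other groups exceeds 23.8 TPM linear or 3.05 TPM circular.

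Dexamethasone was examined against CDG_HDM, the question being whether treated lungs differ from sensitized ones. None of the 31 genes was called by limma, against 0.00573% of all genes, and 1 of 31 had an unadjusted p under 0.05, against 3.97% of all genes. The median difference was 0.17, and it ran from 0.12 without CDG_HDM 13 to 0.24 without Dex_CDGHDM 4 when 1 library was left out. Myh6 was at 8.15 to 10.9 TPM in Dex_CDGHDM (median 9.41), inside the CDG_HDM range (0.50, 95% interval 0.00 to 1.00, adjusted p = 1). For Mb the difference was 0.68 (-0.06 to 1.41) with 5.31 ± 1.97 TPM, and for Myl3 0.24 (-0.02 to 0.49) with 4.60 ± 0.538 TPM (SD, n = 6). For Nppa it was 0.11 ± 0.32 and for Myl7 0.38 ± 0.32. These intervals do not show that the groups are alike. None of the 10 ratios passed the exact test, and circular Ttn relative to linear was 4.87% ± 4.81 (difference -0.84 percentage points, exact adjusted p = 0.992).

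AntimiR-155 was examined against CDG_HDM in the same way. None of the 31 genes was called by limma, against 0.103% of all genes, and 1 of 31 had an unadjusted p under 0.05, against 7.24% of all genes. The median difference was 0.10 with all 6 AM155 libraries, against -0.077 over all genes. When 1 library was left out, the median of the 31 genes ran from -0.038 without AM155 2 to 0.22 without AM155 6, so its sign rested on AM155 2. It was 0.37 without both AM155 5 and AM155 6. None of the 31 genes was called in any of these. Relative to the median of all genes, the 31 genes stood at 0.17, and at 0.065 without AM155 2. The single gene with an unadjusted p under 0.05 was Myh7. It was at 16.3 to 32.9 TPM in AM155 (median 20.2) against 21.8 to 60.2 TPM in CDG_HDM (-0.58, 95% interval -0.96 to -0.20, adjusted p = 0.548). Next in order were Ldb3 (0.18, interval -0.17 to 0.52) and Myoz2 (0.27, interval -0.27 to 0.82). AM155 2 was the highest library of its group for 29 of the 32 genes, at 245 TPM for Myl7, 12.6 TPM for Nppa and 11.5 TPM for Mb, and it exceeded Saline 8 for 12 of the 32. The adipocyte sum in AM155 ran from 44.3 TPM in AM155 5 to 553 TPM in AM155 8, past the Saline range. In the deposited TPM the sum of the 32 genes did not reach the Saline range in any AM155 library. As a share of the linear sum it did in AM155 2 (0.116%, Saline 8 0.103%). None of the 10 ratios passed the exact test.

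The treated groups were also set against Saline, sharing those 5 libraries with the comparison above. In Dex_CDGHDM 28 of 31 genes were lower, where limma called 17.5% of all genes lower, and in AM155 30 of 31 were lower, where it called 32.7% lower. Their median differences were -1.48 and -1.55. In Dex_CDGHDM Myh7, Myl2 and Tcap were not called, and 25 genes did not overlap with Saline, which holds for 12% of all genes. In AM155 Myl2 was not called, and 18 genes did not overlap, against 12.7% of all genes. Of the 13 that did, Saline 8 alone reached into the AM155 range for all but Myh7, Myl2 and Tcap. Overlap of gene levels was judged on the deposited TPM and not repeated after rescaling. The linear sum was lower in AM155 2 (746164 TPM) than in Saline 8 (858506 TPM), so these counts depend on the scaling. Rescaled to 1 common sum, 27 genes were lower in each, with 1794 lower and 4452 higher calls over all genes in place of 3052 and 1324 for Dex_CDGHDM, and 2141 and 4685 in place of 5695 and 1364 for AM155. The calls lost on rescaling were those of Myh7 (-0.62 ± 0.22, adjusted p = 0.0228), Nppb (-0.39, adjusted p = 0.0386) and Tcap (-0.77, adjusted p = 0.0446) in AM155 and that of Nppb (-0.45, adjusted p = 0.0271) in Dex_CDGHDM. Leaving out 1 library also ended these calls in some cases. That of Myh7 in AM155 was lost without Saline 5, Saline 8 or AM155 5 (-0.56 to -0.52, limma adjusted p from 0.0569 to 0.0789). That of Nppb in AM155 was lost without Saline 2, 4, 5 or 10 or AM155 5 or 6 (-0.41 to -0.29, limma adjusted p from 0.0535 to 0.136). That of Tcap in AM155 was lost without any 1 of the same 6 libraries, AM155 8 or AM155 11 (-0.77 to -0.67, limma adjusted p from 0.0625 to 0.118). In Dex_CDGHDM the call of Nppb was lost without Saline 2, 4 or 10 or Dex_CDGHDM 1, 3 or 4 (-0.44 to -0.40, limma adjusted p from 0.0525 to 0.0681), and Tcap was called without Saline 8 (-0.98, limma adjusted p = 0.0237). Dex_CDGHDM against AM155 gave no call by limma among the 31 genes, against 0.0803% of all genes, with 1 unadjusted p under 0.05, against 7.37% of all genes. That gene was Myh7 (0.54, interval 0.12 to 0.96, adjusted p = 0.4929), followed by Myh6 (0.54, interval -0.02 to 1.10) and Mybpc3 (0.18, interval -0.07 to 0.43).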

How the data were processed

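Left lung lobes of mice in 4 groups gave 27 libraries, made for stranded paired-end sequencing of ribosome-depleted total RNA. Per the submitters' processing notes, CASAVA 1.9 and the genome build mm10 were used. The aligner, the quantifier and any use of strand were not given in the sources used here. The authors deposited TPM values for 21742 linear and 4416 circular rows, so read depth is unknown and no counting error could be given.

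Linear values were analysed with limma 3.58.1 (R 4.3.3) on log2(TPM + 1), with all 4 groups in 1 model without covariates, over 17437 genes that reached 1 TPM in 5 or more libraries. Of the 32 genes, 31 passed, all of them also without the Saline libraries, and 28 were at 1 TPM or more in every library. P-values were computed here from the deposited TPM values and adjusted by the Benjamini-Hochberg method over all genes tested. A call is an adjusted p under 0.05. Fold changes on this scale understate the change of low genes. Circular rows were fitted in the same way. Ratios took log2 after adding 0.1 TPM and were tested by exact permutation. Correlations used 100000 permutations, or all of them in groups of 6 (Python 3.11.15, scipy 1.17.1). The limma procedure was tested on simulated data, where 90% of 50 genes lowered by 1.5-fold were recovered for CDG_HDM against Saline, 88% for Dex_CDGHDM against CDG_HDM and 92% for AM155 against CDG_HDM, each among 17437 genes. The simulated noise was independent between genes, and the lowered genes were drawn at random. These shares therefore do not show how often a change of the 32 genes would be found. Positions are from GENCODE M21 on GRCm38, the assembly behind mm10.

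The members and lists were chosen with earlier results of these data known. The text names all 32 genes, up to 4 called genes with the largest change per list, the genes of the ratios and correlations, and the 3 members with the smallest adjusted p in the other comparisons. Genes named beyond that rule (Ackr1, Neb) were chosen after their values were seen. Some genes that the rule would name are not reported here. Sarcolipin, Tcap, Trdn and Myom2 had no upstream sequence in the table used. Alternatives were other scalings, pseudocounts, filters, variance models, sample sets, a replicate block and leaving out each library.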

Additional observations from a re-analysis of the deposited data

Results flagged for a closer look

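Over the groups of 5, 6, 6 and 10 libraries, 132 sets of values were screened for a single library far from the rest, and 14 were found. Chance alone marks about 1 in 20 sets. Of the 14, 10 were low values of Saline 8. There Myl4 stood at 118.8 TPM (next library 269), Mybphl at 4.61 (12.6), Tnni3 at 50.0 (117), Tnnc1 at 40.1 (96.0) and linear Ttn at 30.7 (59.8). In the same library Ckmt2 stood at 7.95 TPM (next library 15.97), Csrp3 at 35.4 (70.0), Myom2 at 2.48 (6.19), Myoz2 at 9.44 (27.4) and circular Ttn at 4.29 (12.3). The low level in Saline 8 came with low adipocyte and oxidative metabolism sums, and its cause was not tested.

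The other 4 concern single genes. Myl2 was high in Saline 10, at 10.5 TPM against 3.41 in the next library, and in Dex_CDGHDM 1, at 5.36 TPM against 2.82. Nppb was low in CDG_HDM 4, at 1.04 TPM against 2.05, and Ckm in Dex_CDGHDM 4, at 6.86 TPM against 8.62. Outside the comparisons, circular Myh7 RNA was listed at 14.4 TPM in Dex_CDGHDM 6 and at 0 in the other 26 libraries, those of Saline included.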

How the results depend on the processing

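Depth is unknown, so low values carry no counting error, and 5 Saline libraries, 1 of them apart, limit every comparison with Saline. For CDG_HDM against Saline, 27 to 30 of the genes were called lower under every alternative, 28 to 29 when 1 library was left out. Dex_CDGHDM against Saline gave 27 to 29 and AM155 against Saline 27 to 30, and the 3 comparisons among the other groups gave 0 throughout. Leaving out the 3 libraries with over 20% circular RNA and the replicate block for circular Ttn were chosen after seeing the data. Of the ratios, 7 to 8 of 10 passed for CDG_HDM against Saline when 1 library was left out.

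Replicate numbers are shared between groups, but of 20 same-numbered pairs only 2 had correlated deviations above 0.1 (median r = 0.02). The numbers thus gave no sign of pairing the samples, though such correlations cannot exclude a shared batch or order of handling. With the number as a replicate block, 27 genes were called for CDG_HDM against Saline, and 28 each for Dex_CDGHDM and AM155 against Saline. The median difference of the 31 genes became -0.022 for Dex_CDGHDM and -0.19 for AM155 against CDG_HDM, both without a call by limma. Under the block the calls of Tcap (-0.40, limma adjusted p = 0.310) and Nppb (-0.46, limma adjusted p = 0.0746) in CDG_HDM were lost. Myh7 in CDG_HDM against Saline became 0.059, Myoz2 in AM155 against CDG_HDM -0.16, and circular Ttn in AM155 against CDG_HDM 4.44.

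Directions that changed belong to values near 0 or to uncalled results, and the cause was not tested. Myh7 in CDG_HDM against Saline was 0.11 rescaled to a common sum, 0.071 with median-of-ratios scaling and 0.038 with quantile normalization. In Dex_CDGHDM against Saline the same scalings gave 0.12, 0.047 and 0.024. Myl2 in AM155 against Saline was 0.051 rescaled and 0.048 without the 3 libraries. Myh6 with Nppa in Dex_CDGHDM had r = -0.456 without the 2 farthest libraries. Circular Ttn in CDG_HDM against Saline was called with a pseudocount of 1 (-2.88) and as a percent of linear RNA (-13.4 points), and the latter was -0.842 points in Dex_CDGHDM against CDG_HDM.

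Leaving out 1 library at a time turned some directions. Myh7 ranged from -0.19 to 0.063 in CDG_HDM and from -0.23 to 0.027 in Dex_CDGHDM against Saline. Myl2 ranged from -0.46 to 0.0043 in CDG_HDM, -0.44 to 0.031 in Dex_CDGHDM and -0.30 to 0.17 in AM155 against Saline. Circular Ttn in Dex_CDGHDM against CDG_HDM ranged from -0.16 to 3.58. Log2 ratios of AM155 against CDG_HDM ranged from -0.14 to 0.17 (Myh6 to Myh11), -0.15 to 0.16 (Myh6 to Pecam1), -0.12 to 0.13 (Myl4 to Myl3), -0.26 to 0.14 (Myl7 to Myl2), -0.19 to 0.078 (Nppa to Nppb) and -0.058 to 0.29 (Sln to Pln). For Dex_CDGHDM they ranged from -0.081 to 0.52 (Myh6 to Adipoq), -0.15 to 0.019 (Myl4 to Myl3) and -0.0058 to 0.21 (Nppa to Nppb). The Tcap call in CDG_HDM against Saline was lost without Saline 10 (-0.80).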
